A study of Mus musculus with 24 samples.

Results

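The genes of 10 secreted proteins that act on fibroblasts, epithelium and vessels were followed in sorted mouse alveolar macrophages: Pdgfa, Pdgfb, Pdgfc, Tgfb1, Igf1, Vegfa, Hbegf, Areg, Tgfbi and Fn1. They were chosen as a list of names, 10 of the 43430 genes of the count table, and not by a measured value of one comparison. All 10 of 10 passed the filter on low counts over all groups together and were tested. RNA-seq was run on sorted lung macrophages of C57BL/6J mice in 6 groups, with 4 libraries per group, and no allele or transgene was named. The young naive and the old naive groups were Siglec F-high alveolar macrophages of mice that had received no asbestos. The young asbestos and the old asbestos groups were each sorted into Siglec F-high and Siglec F-low alveolar macrophages, so there were 4 asbestos groups. Young mice were 8 to 12 weeks old and old mice were over 18 months old, per the labels. The series text placed the asbestos groups at 28 days after administration. Naive Siglec F-low cells were not analysed here, so the asbestos Siglec F-low sorts have no naive counterpart. The labels did not say that each library came from a separate animal, and p-values measure only the spread between these libraries, which may be technical.

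As background, alveolar macrophages line the air side of the alveolus, and after injury cells that derive from monocytes join them. Platelet-derived growth factors bind receptors on fibroblasts and drive their division and migration, with the A and C chains acting mainly through the alpha receptor and the B chain through both receptors. TGF-beta is secreted in a latent form and, once released, drives fibroblasts to make matrix. IGF-1 supports survival and growth of fibroblasts and epithelium, amphiregulin and HB-EGF are shed ligands of the EGF receptor, and VEGF-A acts on vessels. Fibronectin and TGFBI are matrix proteins that bind integrins. Asbestos fibres cause lung fibrosis in mice, which is the setting of the study.

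The promoter bases of the PDGF A-chain and C-chain genes are shown because, with 22 of the 24 libraries, Pdgfa was higher and Pdgfc lower in Siglec F-low cells at both ages. On GRCm38 the annotation places the protein-coding genes Pdgfa at chr5:138976014-138997370 (minus strand) and Pdgfc at chr3:81036416-81214040 (plus). Igf1 lies at chr10:87858265-87937042 (plus) and Fn1 at chr1:71585520-71653200 (minus). Promoter sequences came from the RefSeq table on GRCm38.p6, which matched 7 of the 10 genes, and bases inside an annotated exon of the gene were left out. Of the RefSeq starts of Pdgfa the farther upstream was used, and the window of the other, chr5:138994282-138994531, holds a GC box and is not printed. The Pdgfa stretch is chr5:138995038-138995194 on the minus strand, 157 bases that end 93 bases before the start used. It lies inside the annotated gene, so it is not upstream of every transcript.
Pdgfa: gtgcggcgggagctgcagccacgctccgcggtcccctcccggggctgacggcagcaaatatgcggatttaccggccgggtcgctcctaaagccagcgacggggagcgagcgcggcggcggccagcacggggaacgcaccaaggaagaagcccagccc
The Pdgfc stretch is chr3:81036166-81036415 on the plus strand, the 250 bases up to its start.
Pdgfc: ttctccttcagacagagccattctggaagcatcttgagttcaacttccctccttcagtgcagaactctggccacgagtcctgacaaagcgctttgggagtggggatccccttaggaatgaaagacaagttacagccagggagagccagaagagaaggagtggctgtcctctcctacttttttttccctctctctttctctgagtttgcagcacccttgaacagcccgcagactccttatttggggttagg
The Pdgfa bases were 72.0% G or C and held 20 CG pairs, and the Pdgfc bases were 50.8% G or C and held 3. Both strands were searched for 8 motifs: TATAAA of the TATA box, TGANTCA of AP-1, GGGCGG of the SP1 GC box, GCGNGGGCG of EGR1, ACGTG of HIF, GAGGAA of PU.1, TGACGTCA of the cyclic AMP response element and TCACGTG of the MiT/TFE E-box. Neither stretch held any of them, so both are printed without capitals. Of all 32851 promoters in the table, over windows of 250 bases, the TATA box was held by 12.4%, the AP-1 motif by 6.75%, the GC box by 32.7% and the EGR1 motif by 4.70%. The shares were 16.6% for the HIF motif, 23.2% for the PU.1 motif, 1.55% for the cyclic AMP response element and 3.13% for the E-box, which itself contains the HIF motif. These shares are for full windows of 250 bases, while the Pdgfa stretch has 157. The 93 Pdgfa bases left out hold a GC box 93 and another 86 bases before the start used, and a PU.1 motif 27 bases before it. The absence of a match says only that these letters are not in the bases printed.

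The libraries held 13423080 to 18124526 counts, apart from 2 that stood apart. Replicate 3 of young asbestos Siglec F-high had 11889517 counts on 12528 genes, and replicate 3 of old asbestos Siglec F-high had 3894699 counts, 44.0% of them on genes related to ribosomal RNA. Both belong to the Siglec F-high asbestos groups, so each test is given with all 24 libraries and, where it differs, with the other 22. Siglecf itself followed the sort: its mean was 534 CPM in young naive, 500 in old naive, 420 and 442 in the young and old asbestos Siglec F-high groups, and 265 and 173 in the Siglec F-low groups. CPM is the count of a gene scaled to a common library size, with TMM factors. The summed level of 16 markers of monocyte-derived macrophages was 1385 to 3194 CPM over the Siglec F-high libraries and 5290 to 7912 over the Siglec F-low libraries, and 10 of 16 were called higher in Siglec F-low at each age. A large part of this sum is Spp1, so the sum does not describe each of the 16 genes. The part of the mix of cells in the members' differences was not tested, and in bulk RNA a change in the share of a cell type and a change in RNA per cell cannot be told apart.

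Per length of exon, Tgfbi, Fn1 and Tgfb1 had the highest levels of the 10. Tgfbi ranged from 201 to 263 CPM per kilobase over the 6 group means, Fn1 from 87.6 to 413, and Tgfb1 from 72.5 to 94.4. Areg at 8.95 to 18.5 and Pdgfc at 6.99 to 11.6 CPM per kilobase formed a middle range. Igf1 moved through that range, from 1.64 CPM per kilobase in young naive to 23.5 in old asbestos Siglec F-low. Vegfa lay at 1.23 to 4.32 and Pdgfb at 0.706 to 1.99 CPM per kilobase. Pdgfa and Hbegf were close to undetected in naive cells, at 0.0452 to 0.0594 and 0.0551 to 0.125 CPM per kilobase. They reached 2.73 and 3.47 in old asbestos Siglec F-low.

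**Figure D1:**
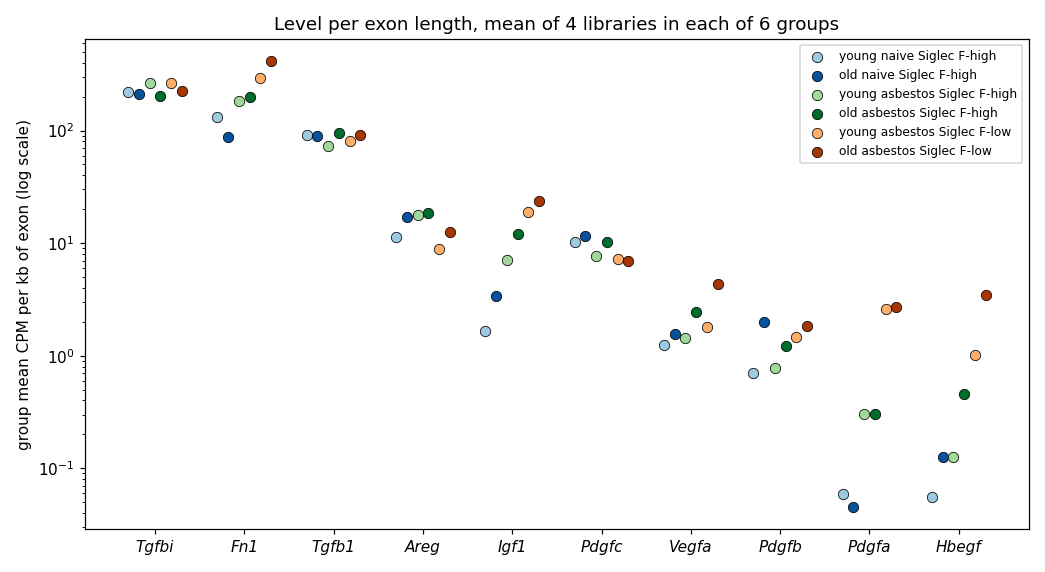
Mean level of each gene in CPM per kilobase of merged exon (log axis), 1 point for each of the 6 groups of 4 libraries. Pdgfa, Hbegf and Igf1 spread over the widest range between groups, while Tgfbi and Tgfb1 stay within a factor of 1.31 and 1.30.

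Between the asbestos sorts, Pdgfa, Igf1 and Hbegf were higher in Siglec F-low cells at both ages. With 24 libraries 3 of 10 members were called in young mice, where 4.99% of all tested genes were called, and the same 3 in old mice, where 4.30% were. The threshold for a call was an adjusted p of 0.05 in the edgeR quasi-likelihood test over all genes. With 22 libraries the counts were 4 in young mice (background 12.0%), with Pdgfc lower, and 5 in old mice (11.6%), with Fn1 higher and Pdgfc lower. Without old asbestos Siglec F-high replicate 2, or without old asbestos Siglec F-low replicate 4, the old count was 2. It was 5 with replicate 3 of young asbestos Siglec F-high left out, and 4 with replicate 3 of old asbestos Siglec F-high left out or old naive replicate 1 or 4. The share of all genes called is not given for fits with 1 library left out, so these counts cannot be set beside it. The median log2 fold change of the members was 0.49 in young and 0.73 in old mice, beside 0.0041 and -0.0039 over all genes.

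Within the Siglec F-high sort, asbestos went with higher Igf1 at both ages. In young mice 1 of 10 members was called, beside 1.90% of all genes, and in old mice 2 of 10, Pdgfa and Igf1, beside 0.780%. With 22 libraries these were 1 of 10 (5.06%) and 4 of 10 (4.12%), the latter with Hbegf and Fn1 added. The old count was 1 without old naive replicate 1, 3 or 4 or old asbestos Siglec F-high replicate 1, and 4 with replicate 3 of young asbestos Siglec F-high left out. In young mice it was 2 with replicate 2 of young asbestos Siglec F-high left out or 4, or with replicate 1 of old asbestos Siglec F-high left out or 3. Here too the share of all genes called is not given for fits with 1 library left out. Set against naive Siglec F-high cells, asbestos Siglec F-low cells had 4 members called in young mice (12.4% of all genes) and 5 in old mice (10.5%). With 22 libraries 7 (34.7%) and 6 (30.7%) were called. These comparisons join exposure and sort, which cannot be told apart in them, and they share the naive libraries with the comparisons within Siglec F-high.

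Few members were called between ages with 24 libraries. Old against young, the members' median log2 fold change was 0.26 in naive and 0.42 in asbestos Siglec F-high cells. It was 0.33 in asbestos Siglec F-low cells. Over all genes the medians were -0.0050, 0.036 and -0.0084. In naive cells 2 of 10 were called higher in old mice, Pdgfb and Igf1, beside 2.03% of all genes, and with 22 libraries the same 2 beside 8.03%. None was called between ages in asbestos Siglec F-high cells (0 of 10, 4.76% of all genes) or asbestos Siglec F-low cells (0 of 10, 1.29%) by edgeR with 24 libraries. At an unadjusted p under 0.05 in the edgeR test, 5 and 2 members differed there, beside 3538 and 1097 of all 13467 tested genes. DESeq2 called 4 and 1 members, and its share over all genes is not given here. With 22 libraries 3 (7.32%) and 2 (7.21%) were called, all of them higher in old mice. In Siglec F-high cells the 24-library count rose to 3 without young asbestos replicate 1 or 3, and to 1 without young naive replicate 1, young asbestos replicate 2 or 4, or old asbestos replicate 2. In Siglec F-low cells it was 1 with replicate 3 of young asbestos Siglec F-high left out. In naive cells it fell to 0 without young naive replicate 4, and to 1 without young naive replicate 1 or 3 or old naive replicate 1, 3 or 4. For these fits as well, the share of all genes called is not given.

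**Figure D2:**
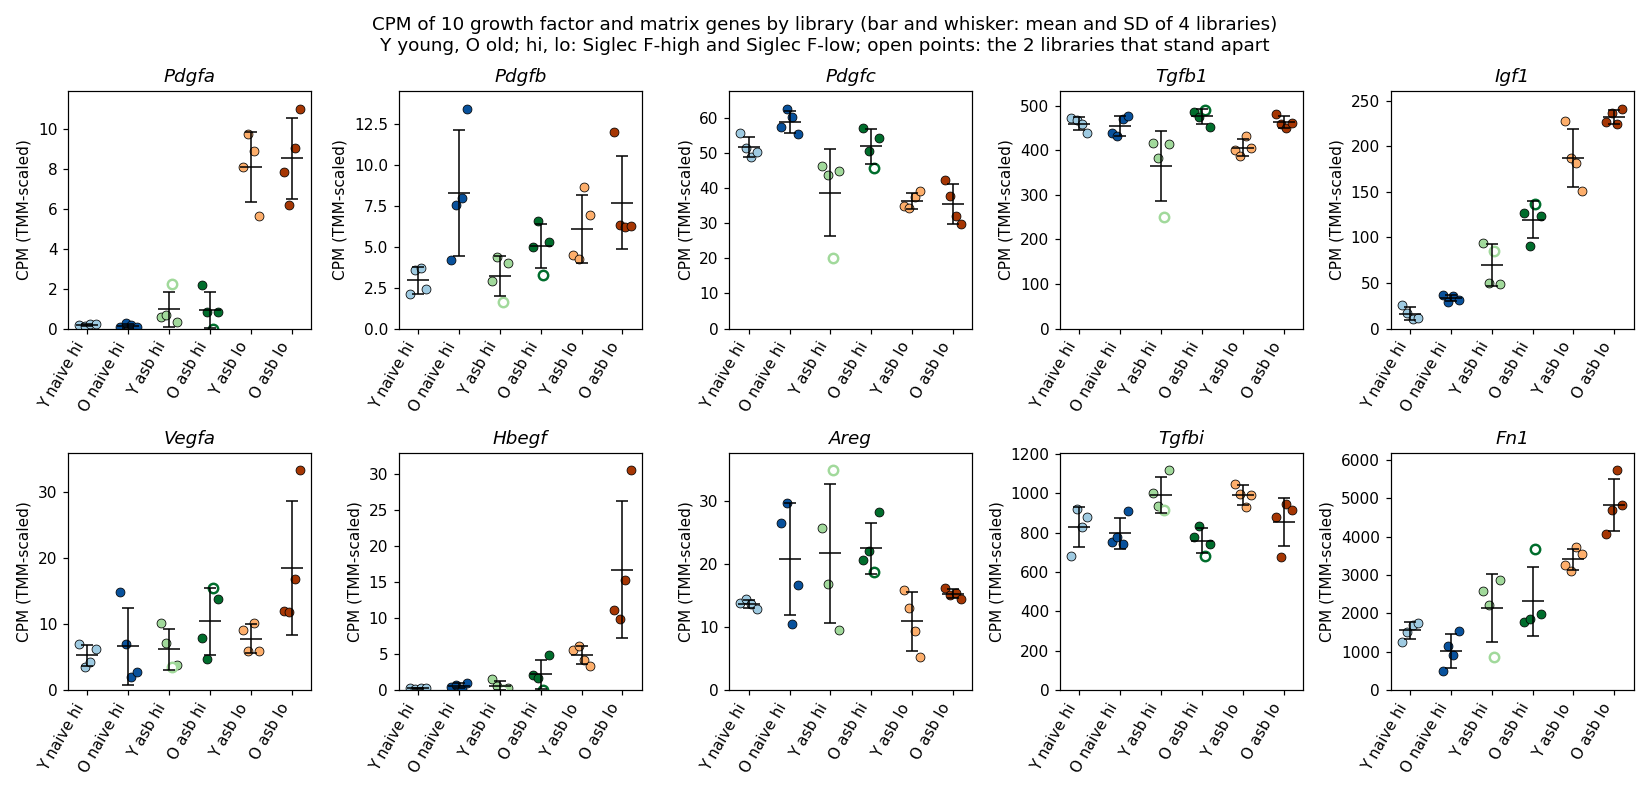
CPM of each gene in all 24 libraries (points), with the mean and SD of the 4 libraries of a group (bars); open points are the 2 libraries that stand apart. Pdgfa, Igf1 and Hbegf are lowest in the naive groups and highest in the Siglec F-low groups, and the open points set the low end of Pdgfc, Tgfb1 and Fn1 in young asbestos Siglec F-high.

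Pdgfa, the A chain of PDGF, was low in every Siglec F-high group and higher in both Siglec F-low groups. Young naive libraries had 0.154, 0.127, 0.243 and 0.217 CPM and old naive libraries 0.0583, 0.281, 0.166 and 0.0592, which rest on 14 and 10 reads per group. Young asbestos Siglec F-high libraries had 0.590, 0.696, 2.22 and 0.312 CPM, the highest in the outlying replicate 3. Old asbestos Siglec F-high libraries had 2.17, 0.820, 0 and 0.801 CPM, the 0 in its shallow replicate 3, where 3 counts would be 2.45 CPM. All Siglec F-low libraries lay above all Siglec F-high libraries. Young Siglec F-low had 8.09, 9.75, 8.86 and 5.65 CPM, and old Siglec F-low had 7.82, 6.20, 9.04 and 11. Siglec F-low exceeded Siglec F-high by a log2 fold change of 3.17 ± 0.47 (SE) in young mice (adjusted p 0.000159, edgeR) and 2.84 ± 0.47 in old mice (0.000710). Without the 2 outlying libraries the values were 3.88 ± 0.36 and 2.73 ± 0.33. The 2 Siglec F-low groups overlapped, with a log2 difference of 0.07 ± 0.40 between ages and a 95% interval of -0.71 to 0.86.

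In the Siglec F-high sort the rise of Pdgfa with asbestos was called in old mice, at 2.99 ± 0.61 (edgeR adjusted p 0.0195), and not in young mice, at 2.20 ± 0.58 (0.0527). The old value rests on 61 reads with asbestos and 10 in naive cells. These tests exist only in fits that also hold the other groups. With the groups compared alone, Pdgfa did not pass the filter on low counts at either age and was not tested. The old call was lost without old naive replicate 1 (0.0946), 3 (0.0739) or 4 (0.0612) or old asbestos replicate 1 (0.139). The young value was called without young asbestos replicate 2 (0.0417) or 4 (0.0209), or old asbestos Siglec F-high replicate 1 (0.0394) or 3 (0.0415). The 2 ages were not shown to differ, with an interaction of 0.79 ± 0.89 (adjusted p 0.760). With 22 libraries the young value was 1.49 ± 0.53 (0.111). A gene on the opposite strand, 6330403L08Rik, overlaps 813 bases of Pdgfa, and reads of the pair cannot be separated without a stated strand. Its own median count was 2.

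Pdgfb, the B chain, differed with age in naive cells. Young naive libraries had 2.11, 3.56, 3.69 and 2.38 CPM, and old naive libraries 4.20, 7.52, 7.96 and 13.4, with no overlap. The log2 fold change was 1.49 ± 0.35 (edgeR adjusted p 0.0204), and 1.5 ± 0.31 with 22 libraries (0.00290). The call was lost without young naive replicate 1 (0.0795) or 4 (0.0968), or old naive replicate 4 (0.136), the highest library of its group. After asbestos the ages overlapped in the Siglec F-low sort, where young libraries had 4.52, 4.22, 8.62 and 6.96 CPM. The old ones had 12.0, 6.33, 6.22 and 6.26, so 3 lay close together and 1 far above. Old asbestos Siglec F-high libraries had 5.0, 6.56, 3.27 and 5.31 CPM and young ones 2.89, 4.37, 1.64 and 3.99. From naive to asbestos within Siglec F-high, Pdgfb changed by 0.16 ± 0.35 in young mice and -0.63 ± 0.35 in old mice, neither called. Young Siglec F-low exceeded young naive by 1.05 ± 0.35 (0.0505). This was called with 22 libraries (0.0123) and without any 1 of old naive replicate 1 (0.0359) or 4 (0.0376), young asbestos Siglec F-high replicate 3 (0.0161), young asbestos Siglec F-low replicate 2 (0.0441), old asbestos Siglec F-high replicate 3 (0.0465) or old asbestos Siglec F-low replicate 1 (0.0424).

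Pdgfc, whose chain needs proteolytic activation before it binds the alpha receptor, ran the other way. Young naive libraries had 55.7, 51.6, 49.0 and 50.5 CPM and old naive libraries 57.6, 62.8, 60.2 and 55.6. Young asbestos Siglec F-high libraries had 46.3, 43.8, 20.2 and 44.8 CPM, the low value in the outlying replicate 3. Old asbestos Siglec F-high libraries had 57.3, 50.6, 45.7 and 54.3 CPM. Siglec F-low libraries were lower, at 34.9, 34.3, 37.4 and 39.3 CPM in young mice and 42.4, 37.9, 32.1 and 29.8 in old mice. Apart from that replicate 3, each Siglec F-low library lay below each Siglec F-high library of any group. Old Siglec F-low was lower than old naive by -0.73 ± 0.17 on the log2 scale (0.00618, adjusted p of edgeR), the only fall among the members called with 24 libraries in the 9 comparisons. Between the asbestos sorts the values were -0.56 ± 0.18 in old mice (0.0792) and -0.09 ± 0.17 in young mice (0.800). With 22 libraries both were called, at -0.61 ± 0.09 (8.55e-05) and -0.30 ± 0.09 (0.0327). Leaving out young asbestos Siglec F-high replicate 3 alone gave -0.57 ± 0.10 in old mice (0.000318). Young Siglec F-low against young naive gave -0.50 ± 0.17 (0.0614) and was called without that library (0.000250) or with replicate 3 of old asbestos Siglec F-high left out (0.0494).

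Igf1, insulin-like growth factor 1, rose in steps over the 6 groups. Young naive libraries had 26, 16.6, 10.6 and 12.0 CPM, and old naive libraries 37.0, 29.6, 36.1 and 31.3. Young asbestos Siglec F-high libraries had 94.3, 50.05, 85.6 and 49.3 CPM, and old ones 127, 91.0, 137 and 124. Young Siglec F-low libraries had 228, 187, 181 and 151 CPM, and old ones 227, 237, 225 and 242. The order of the means was young naive, old naive, young and then old asbestos Siglec F-high, and young and then old Siglec F-low. Neighbours overlapped only between young and old asbestos Siglec F-high and between young and old Siglec F-low.

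In Siglec F-high cells Igf1 was higher with asbestos by a log2 fold change of 2.10 ± 0.24 in young mice (edgeR adjusted p 3.70e-05) and 1.83 ± 0.24 in old mice (0.000185). A fit of the groups compared alone gave 0.134 for the young value. Siglec F-low exceeded Siglec F-high by 1.42 ± 0.24 in young mice (0.000567) and 0.97 ± 0.23 in old mice (0.0180). The old call was lost with replicate 2 of old asbestos Siglec F-high left out (0.0621) or Siglec F-low replicate 4 (0.0548). Old naive exceeded young naive by 1.04 ± 0.24 (0.0174), and this call was lost without young naive replicate 3 (0.0897) or 4 (0.0932), or old naive replicate 1 (0.0544) or 3 (0.0533). In asbestos Siglec F-high cells the age difference was 0.77 ± 0.23 (0.0582), and 0.83 ± 0.24 with 22 libraries (0.0362). It was also called without young naive replicate 1 (0.0286), young asbestos replicate 1 (0.0239) or 3 (0.0334), or old asbestos replicate 2 (0.0497). In Siglec F-low cells the age difference was 0.32 ± 0.23 (0.982). The sort difference was not shown to differ between ages, with an interaction of -0.46 ± 0.33 (0.762).

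Hbegf, the gene of heparin-binding EGF-like growth factor, was nearly silent in naive cells. Young naive libraries had 0.36, 0.191, 0.243 and 0.271 CPM, and old naive libraries 0.466, 0.730, 0.221 and 1.01. Young asbestos Siglec F-high libraries had 1.5, 0.646, 0 and 0.312 CPM and old ones 2.17, 1.70, 0 and 4.88, with both values of 0 in the outlying libraries. A count of 3 would be 0.29 CPM in the young and 2.45 CPM in the old of these libraries. Young Siglec F-low libraries had 5.60, 6.16, 4.25 and 3.42 CPM, above all naive and all young Siglec F-high libraries. Old Siglec F-low libraries had 11.2, 9.91, 15.4 and 30.6 CPM, above all other libraries. Siglec F-low exceeded Siglec F-high by 2.85 ± 0.58 in young mice (edgeR adjusted p 0.00409) and 2.67 ± 0.55 in old mice (0.00544). With the groups compared alone the young adjusted p was 0.155 at a value of 2.90.

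Whether the age difference of Hbegf was called changed with the libraries and the tool. Its size was similar with 24 and 22 libraries. Leaving out 1 library gave log2 fold changes of 1.38 to 2.83 in asbestos Siglec F-high and 1.33 to 1.98 in Siglec F-low. Old exceeded young by a log2 fold change of 1.79 ± 0.50 in Siglec F-low (edgeR adjusted p 0.1) and by 1.97 ± 0.61 in asbestos Siglec F-high (0.0603). With 22 libraries both were called, at 1.80 ± 0.36 (0.00261) and 1.78 ± 0.53 (0.0435). With 24 libraries DESeq2 called both (adjusted p 0.0296 and 0.0203). The Siglec F-low difference was also called by limma voom (0.0002) and by edgeR on the groups compared alone (0.00649). The Siglec F-low value was called with replicate 3 of young asbestos Siglec F-high left out alone (0.00602), and the Siglec F-high value without young asbestos replicate 1 (0.0165). In old mice asbestos Siglec F-high exceeded naive by 2.11 ± 0.61 (0.137), or 2.24 ± 0.52 with 22 libraries (0.0150) and 2.15 ± 0.53 with replicate 3 of young asbestos Siglec F-high left out (0.0292).

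Areg, the gene of amphiregulin, encodes another ligand of the EGF receptor and was not called by edgeR in any of the 9 comparisons with 24 or with 22 libraries. In young naive cells the libraries had 13.7, 14.4, 13.6 and 12.8 CPM and old naive libraries 26.5, 29.6, 10.5 and 16.6. Asbestos Siglec F-high libraries had 25.7, 16.8, 34.8 and 9.48 CPM in young mice and 20.7, 22, 18.8 and 28.2 in old mice. Siglec F-low libraries had 15.9, 13, 9.39 and 5.2 CPM in young mice and 16.2, 15.1, 15.4 and 14.5 in old mice, all 4 of the latter below the old Siglec F-high libraries. Siglec F-low against Siglec F-high gave -0.99 ± 0.34 in young mice (edgeR adjusted p 0.0965) and -0.58 ± 0.34 in old mice (0.461). With 24 libraries the young difference was called by DESeq2 (-1.02, adjusted p 0.0418) and limma voom (-0.91, 0.0393), and the old one by edgeR on the groups compared alone (-0.59, 0.0273). Without young asbestos Siglec F-high replicate 4, the lowest of its group, the young value was -1.23 ± 0.32 (0.0237).

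Vegfa, the endothelial growth factor, varied more within groups than between most of them. The young naive libraries had 6.95, 3.56, 4.32 and 6.29 CPM and old naive libraries 14.8, 7.02, 1.99 and 2.78. Asbestos Siglec F-high libraries had 10.1, 7.16, 3.58 and 3.87 CPM in young mice and 7.84, 4.69, 15.5 and 13.8 in old mice. Young Siglec F-low libraries had 9.11, 5.99, 10.2 and 5.88 CPM and old ones 12.0, 11.8, 16.9 and 33.3, so the old Siglec F-low libraries lay above the young ones. None of the 9 comparisons was called by edgeR with 24 libraries. Old Siglec F-low against old naive gave 1.48 ± 0.50 (edgeR adjusted p 0.0653), was called with 22 libraries (0.0177), and reached 2.24 ± 0.50 without old naive replicate 1 (0.00552). It was also called with replicate 3 of young asbestos Siglec F-high left out (0.0235). With 24 libraries DESeq2 (0.0255), limma voom (0.00148) and edgeR on the groups compared alone (0.0493) called it too. The age difference in Siglec F-low was 1.25 ± 0.50 (0.397), and was called by limma voom (0.0409) and with the groups compared alone (0.0316).

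Tgfb1, the gene of TGF-beta 1, was high and varied little. Levels in young naive libraries were 472, 467, 460 and 440 CPM and old naive libraries 438, 432, 471 and 476.1. Young asbestos Siglec F-high libraries had 416, 383, 250 and 413 CPM, the lowest in the outlying replicate 3, and old ones 486, 475, 491 and 452. Siglec F-low libraries had 401, 386, 431 and 406 CPM in young mice and 481, 459, 450 and 461 in old mice. After asbestos the old libraries lay above the young ones in both sorts. The age difference was 0.38 ± 0.12 in Siglec F-high (edgeR adjusted p 0.0582) and 0.19 ± 0.12 in Siglec F-low (0.858), neither called. With 22 libraries both were called, at 0.23 ± 0.06 (0.0231) and 0.19 ± 0.05 (0.0283). The Siglec F-high value was also called without any 1 of young asbestos replicates 1 (0.0291), 2 (0.0478), 3 (0.0496) or 4 (0.0303). Between the sorts Tgfb1 differed by 0.15 ± 0.12 in young and -0.04 ± 0.12 in old mice. Young Siglec F-low against young naive gave -0.18 ± 0.12 (0.394), which was called with replicate 3 of young asbestos Siglec F-high left out (-0.18 ± 0.06, 0.0388).

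Tgfbi, a matrix protein named for its induction by TGF-beta, did not pass the edgeR test in any of the 9 comparisons with 24 or with 22 libraries. Naive libraries had 683, 918, 828.7 and 877 CPM in young mice and 754, 778, 741 and 910 in old mice. Asbestos Siglec F-high libraries had 999, 935, 914 and 1116 CPM in young mice and 778, 834, 681 and 742 in old mice, with no overlap between ages. Siglec F-low libraries had 1047, 996, 928 and 992 CPM in young mice and 881, 674, 947 and 915 in old mice. The age difference in asbestos Siglec F-high was -0.38 ± 0.12 (edgeR adjusted p 0.0652), and -0.42 ± 0.12 without young asbestos replicate 3 (0.0381). With 24 libraries DESeq2 (0.0147) and limma voom (0.00926) called it. In young mice limma voom also called Tgfbi higher than naive in asbestos Siglec F-high (0.27, adjusted p 0.0353) and in Siglec F-low (0.24, 0.0265). The latter was called by edgeR with 22 libraries and a replicate block (0.26, 0.0428). The sorts differed by -0.00084 ± 0.12 in young mice and 0.17 ± 0.12 in old mice, with 95% intervals of -0.24 to 0.24 and -0.07 to 0.41.

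Fn1, the gene of fibronectin, was highest in old Siglec F-low cells. In naive cells of young mice, libraries had 1254, 1505, 1707 and 1762 CPM and old naive libraries 488, 1150, 912 and 1543. Young asbestos Siglec F-high libraries had 2574, 2234, 857 and 2878 CPM and old ones 1778, 1846, 3672 and 1982. The outlying replicate 3 was the lowest of the first group and the highest of the second. Siglec F-low libraries had 3272, 3104, 3733 and 3539 CPM in young mice and 4073, 4693, 5734 and 4817 in old mice, above all others except that old replicate 3.

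Fn1 in Siglec F-low exceeded naive by a log2 fold change of 1.13 ± 0.32 in young mice (edgeR adjusted p 0.0204) and 2.24 ± 0.33 in old mice (4.74e-05). The young call was lost without young naive replicate 1 (0.0632). Between the sorts the difference was 0.68 ± 0.32 in young mice (0.230) and 1.06 ± 0.32 in old mice (0.0662). The old value was called with 22 libraries, at 1.36 ± 0.23 (0.000253). It was also called without old naive replicate 1 (0.0338) or 4 (0.0492), young asbestos Siglec F-high replicate 3 (0.00661) or old asbestos Siglec F-high replicate 3 (0.0194). Asbestos against naive in old Siglec F-high gave 1.18 ± 0.32 (0.105), and 0.87 ± 0.22 with 22 libraries (0.0235) or 1.18 ± 0.25 with replicate 3 of young asbestos Siglec F-high left out (0.0102). The age difference in asbestos Siglec F-high changed sign with the outlying libraries, from 0.12 ± 0.32 with 24 to -0.44 ± 0.23 with 22, and was called in neither. In naive cells it was -0.61 ± 0.32 (edgeR adjusted p 0.677), and -0.60 ± 0.20 with 22 libraries (0.0726). Limma voom called the naive difference (-0.77, 0.0117), as did edgeR with 22 libraries and a replicate block (-0.64, 0.0195). In Siglec F-low it was 0.50 ± 0.32 (0.886), and was called by edgeR on the groups compared alone (0.51, 0.0105). Apol7d overlaps 292 bases of Fn1 on the opposite strand, at a median count of 5, and Gm16000 overlaps 147 bases of Pdgfc at a median count of 2.

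**Figure D3:**
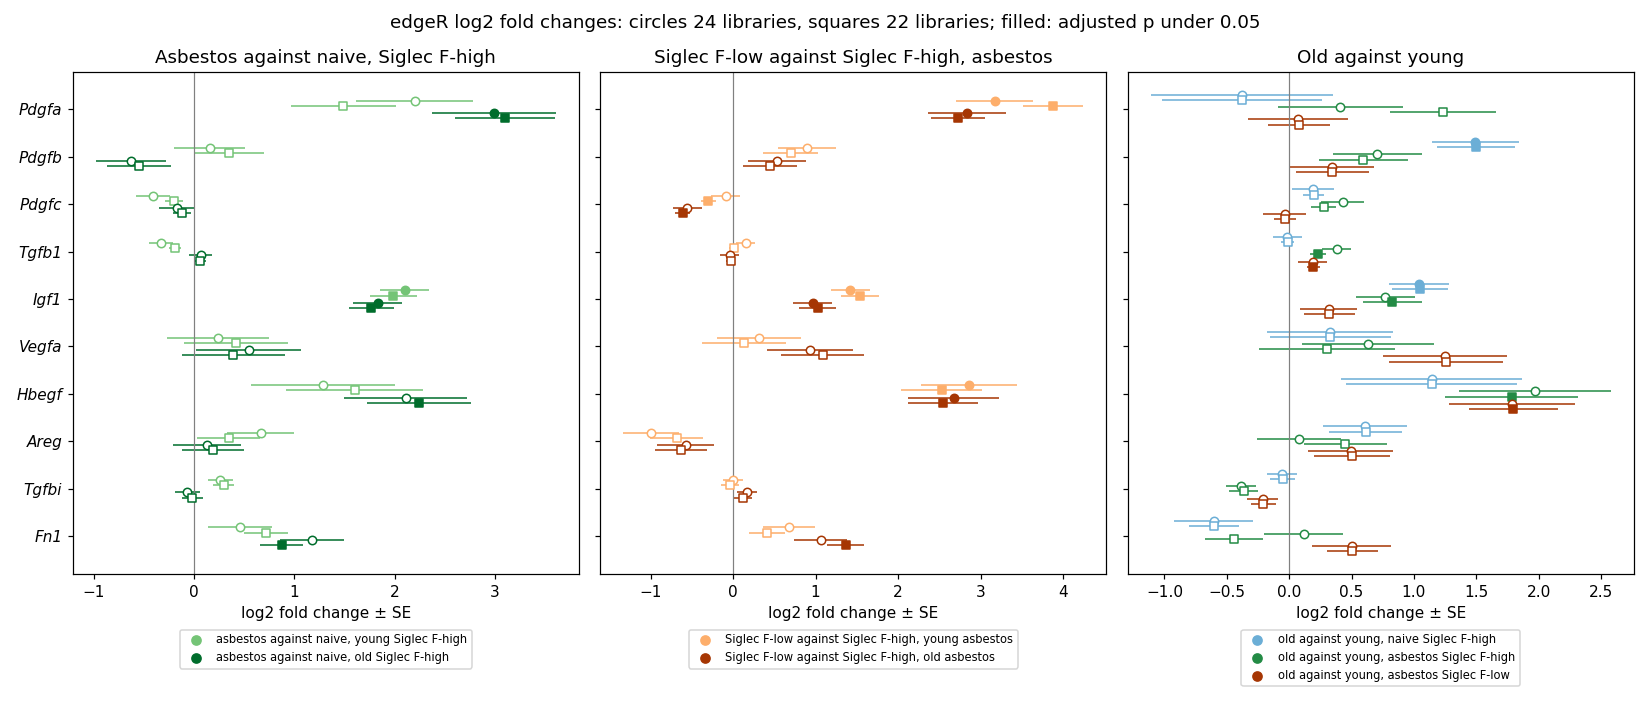
Log2 fold change ± SE of each gene in 7 comparisons, from fits of 24 libraries (circles) and 22 libraries (squares), filled where the adjusted p was under 0.05. Pdgfa, Igf1 and Hbegf are filled at both ages in the sort panel, and Tgfbi is open throughout.

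No member's response to asbestos or to sort was shown to differ between ages. Of the interactions of age with asbestos and of age with sort, 0 of 10 members were called by edgeR in each (0% of all genes with 24 libraries). At an unadjusted p under 0.05, 1 and 0 members passed, and 1050 and 650 of all genes. With 22 libraries 0 of 10 were called in each, beside 0.0147% of all genes, and DESeq2 also called 0 in each. At an unadjusted p under 0.05, 1 member passed with 22 libraries for age with asbestos, Tgfb1 (0.00677), and 703 of all genes. For age with sort 3 passed, Pdgfa (0.0287), Pdgfc (0.0275) and Fn1 (0.00549), and 870 of all genes. Over the 22 libraries, log2 CPM of Pdgfa, Igf1 and Hbegf correlated with one another at a Pearson coefficient of 0.895 to 0.916. Pdgfc correlated with Pdgfa at -0.853 and with Fn1 at -0.870. These describe libraries that share groups, and groups that share ages and sorts.

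Among the other genes of the PDGF and VEGF family, 11 of 16 were tested, and between the asbestos sorts the receptor gene Flt1 and the ligand gene Pgf were lower in young Siglec F-low cells. Flt1, which encodes VEGF receptor 1, fell from 355 ± 196 to 142 ± 27.8 CPM (SD, n = 4), by -1.32 on the log2 scale (edgeR, adjusted p 0.0045). Pgf, placental growth factor, had a mean of 4.41 ± 6.79 CPM in young Siglec F-high, where its libraries ranged from 0.746 to 14.6 CPM, and was not called with 22 libraries. In old mice 0 of 11 were called. The share of all genes called was 4.99% in young and 4.30% in old mice, and with 22 libraries 12.0% and 11.6%. With 22 libraries Vegfb and the co-receptor Nrp2 were higher and Flt1 lower in Siglec F-low at both ages. The PDGF receptors were nearly absent from these cells: group means of Pdgfra were 0.0730 to 1.26 CPM and of Pdgfrb 0.0869 to 0.339 CPM.

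Of the other TGF-beta genes 25 of 29 were tested. Ltbp3, which encodes a latent TGF-beta binding protein, was higher in Siglec F-low cells at both ages. Its group means were 1.97 ± 0.748 and 15.7 ± 2.73 CPM in young and 2.88 ± 0.879 and 22.5 ± 7.84 CPM in old mice, by log2 fold changes of 3.02 and 3.11. In young mice 2 were called higher, Ltbp3 and the ubiquitin ligase gene Smurf1, and 1 lower, Tgfb2, another TGF-beta ligand. In old mice 3 were called higher, Ltbp3, Lrrc32 and the co-receptor gene Eng, and 0 lower. Lrrc32, which presents latent TGF-beta on the cell surface, stayed under 2 CPM in every group mean. These calls, 3 of 25 at each age, stand beside 4.99% of all genes in young and 4.30% in old mice. With 22 libraries 3 were higher and 5 lower in young mice (background 12.0%), and 4 and 4 in old mice (11.6%). Median log2 fold changes of the list were 0.04 and 0.08.

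The IGF genes held 8 tested of 17, and Igf2r and Igfbp6 were called higher in Siglec F-low cells at both ages, as Igf1 was. Igf2r, a receptor that takes up IGF-2 and lysosomal enzymes, rose from 10.7 ± 1.77 to 62.3 ± 8.37 CPM in young and from 23.3 ± 9.17 to 79.0 ± 25.9 CPM in old mice. Igfbp6, an IGF-binding protein, had 0.357 ± 0.336 and 4.64 ± 2.67 CPM in young and 0.833 ± 0.648 and 12.3 ± 1.66 CPM in old mice. Igf1r, the receptor of IGF-1 itself, had group means of 1.75 to 2.39 CPM. Of the EGF family 12 of 18 were tested and 1 was called at each age, Nrg1, at under 1 CPM in each group mean. For the IGF genes 2 of 8 and for the EGF family 1 of 12 were called at each age, with 24 and with 22 libraries, beside the same background shares. Ereg, the gene of epiregulin, was higher in old than in young naive cells, at 22.6 ± 9.32 against 4.29 ± 0.982 CPM. Egfr, the receptor of Areg and Hbegf, had group means of 0.0373 to 0.116 CPM.

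Of the matrix and integrin genes, 7 of 20 were called higher in Siglec F-low at each age and 0 lower, beside 4.99% of all genes called in young and 4.30% in old mice in either direction. With 22 libraries 11 of 21 were higher and 1 lower in young mice (background 12.0%), and 8 higher and 0 lower in old mice (11.6%). Mfge8, Ecm1, Spp1, Sdc1 and Itgb3 were called at both ages. Mfge8, whose product bridges dying cells to integrins, had 94.5 ± 28.4 and 544 ± 27.2 CPM in young and 185 ± 43.9 and 713 ± 178 CPM in old mice. Spp1, the gene of osteopontin, had 916 ± 483 and 3389 ± 1002 CPM in young and 948 ± 193 and 2922 ± 398 CPM in old mice. Itga5 and Itgb1, which encode the subunits of a fibronectin receptor, were not called between sorts at either age. With age, and with 24 libraries, the basement membrane collagen genes Col4a1 and Col4a2 and Ecm1 were called higher in old mice in all 3 comparisons. Col4a2 had 2.68 ± 0.359 CPM in young naive and 177 ± 50.3 in old naive cells. Tested genes of the list had a median log2 fold change between sorts of 0.58 in young and 0.40 in old mice.

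**Figure D4:**
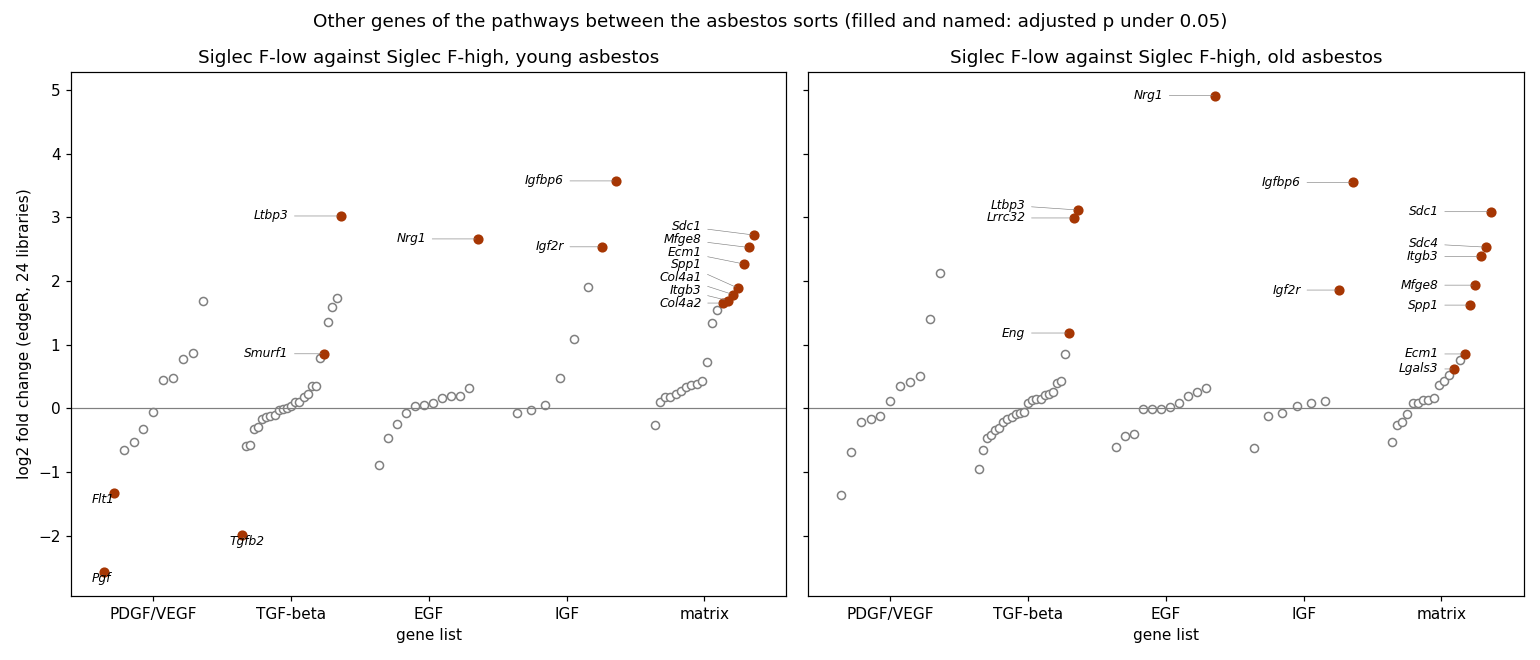
Log2 fold change (edgeR, 24 libraries) of each tested gene of 5 pathway lists between Siglec F-low and Siglec F-high asbestos cells, young on the left and old on the right; filled points are called and named. Ltbp3, Nrg1, Igf2r, Igfbp6, Mfge8, Spp1, Sdc1, Itgb3 and Ecm1 are filled on both sides.

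Markers of other cells were measured beside the members. The summed level of 12 fibroblast and mesothelial markers was 0.0967 to 17 CPM per library, and of 10 platelet and megakaryocyte markers 3.06 to 11.7 CPM, with Gp6 at 0 counts in all libraries. The fibroblast sum was 2.68 to 15.9 CPM in young and 5.87 to 12.6 in old Siglec F-low libraries, against 0.0967 to 4.93 and 1.46 to 17 in Siglec F-high asbestos libraries. The sum of 8 basophil and mast cell markers was 0 to 4.44 CPM, and that of 10 T cell and innate lymphoid markers was 19.6 to 109 CPM. The T cell and lymphoid sum moved with the sort, as Pdgfa, Igf1 and Hbegf did. It was 70.0 to 109 CPM in old Siglec F-low against 19.6 to 36.03 in old asbestos Siglec F-high, with no overlap. In young mice it was 49.2 to 82.4 against 23.3 to 50.5 CPM, which overlapped. Lung epithelial markers summed to 181 to 398 CPM and endothelial markers to 88.4 to 372 CPM. The endothelial sum was 268 to 307 CPM in young Siglec F-low against 88.4 to 224 in young asbestos Siglec F-high, with no overlap. In old mice it was 239 to 372 against 204 to 330 CPM, which overlapped. B cell markers summed to 103 to 186 CPM in young naive and 221 to 415 in old naive libraries, which did not overlap, in the contrast where Pdgfb and Igf1 were called. After asbestos the B cell sum was 44.0 to 64.8 CPM in young and 54.2 to 175 in old Siglec F-high libraries, and 52.9 to 79.3 and 95.8 to 222 in Siglec F-low ones. Eosinophil markers summed to 3.79 to 9.29 CPM in naive libraries, 18.2 to 31.99 in young and 8.17 to 42.5 in old asbestos Siglec F-high, and 44.6 to 65.8 and 25.0 to 66.3 in Siglec F-low. The eosinophil sums of the asbestos groups did not overlap the naive ones, except that of old Siglec F-high. Neutrophil markers summed to 46.5 to 116 CPM and dendritic cell markers to 18.9 to 47.7. The 20 immediate early genes, which respond to handling of cells, summed to 9811 to 12060 CPM in naive, 8182 to 9912 in asbestos Siglec F-high and 7466 to 9731 in Siglec F-low libraries. Resident alveolar macrophage markers, 15 genes led by Chil3, summed to 19500 to 24890 CPM in naive libraries. They summed to 28730 to 33140 CPM in young and 20530 to 45510 in old asbestos Siglec F-high, and to 41240 to 53410 and 57160 to 71620 in Siglec F-low, so the sorts did not overlap at either age. A sum follows its most abundant genes, and Siglecf, also on this list, was lower in Siglec F-low at both ages. The sum therefore does not describe each of the 15 genes. The part of these cells and genes in the members' differences was not tested.

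The genes most like each member were taken as the 2 with the highest Pearson coefficient of log2 CPM over 22 libraries, which are not independent of the groups. Pdgfa was closest to Npy and Slamf7, each at 0.973, and Npy went from 0 CPM in young naive to 17.4 in old Siglec F-low. Igf1 was closest to Mfge8 (0.983) and Epas1 (0.981), and Hbegf to Mindy1 (0.977) and Tpcn2 (0.967). Fn1 was closest to Rab3il1 (0.933) and Cspg4 (0.930), and Pdgfc to Vstm2a (0.949) and Pald1 (0.948). Pdgfb was closest to Tmem43 (0.847) and Cpeb1 (0.803), Tgfb1 to Scmh1 (0.825) and Zfpm1 (0.817), and Tgfbi to Gdap2 (0.845) and Chek2 (0.772). Vegfa was closest to Slc25a25 (0.870) and Dusp4 (0.864), and Areg to Nr4a2 (0.849) and Acot4 (0.824).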

How the data were processed

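Poly(A)-selected RNA of sorted lung macrophages was sequenced, per the labels' protocols. The authors deposited 1 table of whole-number read counts per Ensembl gene, not scaled. Per the submitters' processing notes, bcl2fastq 2.19.1, Trimmomatic 0.36, STAR 2.6.0, HTSeq 0.11.2 and mm10 were used, while annotation and strand are not given in the sources used here. Symbols, positions and exon lengths came from GENCODE M21 on GRCm38. In R 4.3.3, filterByExpr of edgeR 4.0.16 (minimum count 10, minimum total 15) kept 13467 genes with 24 libraries and 13629 with 22. TMM factors scaled the counts, and the model had 1 term per group. Quasi-likelihood F tests were adjusted by Benjamini-Hochberg over all genes of a comparison, with a threshold of 0.05. The SE was the absolute log2 fold change over the square root of F, and log2 CPM used a prior count of 2. The fit was tested on simulated counts with known changes. The 22-library fit left out the libraries with few genes or many counts on ribosomal RNA. Settings tried were DESeq2 1.42.0, limma 3.58.1 (voom with quality weights), RLE factors, no filter, groups compared alone, a replicate block and each library left out. Named were all 10 members, list genes that were called, up to 3 per direction by smallest p with further ones shown by count or chosen after their values were seen, and 2 similar genes per member. 1 marker gene is not reported by name here. The members and lists were chosen with earlier results of these data known. Replicate numbers were taken to pair 2 groups where each correlation of same-numbered deviations passed 0.1. No pair of groups passed with 24 libraries, and with 22 the old asbestos sorts did, at 0.161 to 0.216 over 3 numbers.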

Additional observations from a re-analysis of the deposited data

Results flagged for a closer look

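Of 60 sets of 4 libraries (10 genes in 6 groups), 3 held a library far from its neighbours, and about 3 would by chance. Pdgfb was 12.0 CPM in replicate 1 of old asbestos Siglec F-low, against 6.22 to 6.33 CPM in the others. Pdgfc was 20.2 CPM in young asbestos Siglec F-high replicate 3, against 43.8 to 46.3 CPM. Fn1 was 3672 CPM in old asbestos Siglec F-high replicate 3, against 1778 to 1982 CPM. The last pair are the libraries that the 22-library fit leaves out, with few genes in the first and few counts in the second.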

How the results depend on the processing

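The counts of members called moved most. With 22 libraries they were 3 and 2 for age in asbestos Siglec F-high and Siglec F-low, 4 for asbestos in old Siglec F-high, 5 for the sorts in old mice and 7 for Siglec F-low against naive in young mice. The replicate block (all libraries) gave 1 for age in asbestos Siglec F-high, as did RLE factors, and it changed no other count by over 1.5 times. With the block and 22 libraries, a fit added after seeing the data, these were 4 and 2 for age, 2 and 4 for asbestos in young and old mice, 5 for the old sorts and 8 for Siglec F-low against naive in young mice. With 22 libraries the old asbestos sorts, the only groups whose numbers paired, had the same count of 5 with and without the block. The block shares 1 effect per replicate number over all 6 groups. It therefore does not model pairing within those sorts, and the equal counts do not show whether pairing matters. The groups compared alone gave 3 for age in Siglec F-low, 0 and 1 for asbestos in young and old mice, and 6 for the old sorts. Voom gave 4 and 3 for age, 4 for asbestos in young mice, 5 and 5 for the sorts and 8 for Siglec F-low against naive in young mice. DESeq2 gave 4 and 1 for age, 3 and 4 for asbestos and 5 for the old sorts. The cause of the other moves was not tested. For young Siglec F-low against naive, the share of all genes called also moved, from 12.4% with 24 to 34.7% with 22 libraries. That share is not given here for the other fits, so their counts cannot be set beside all genes. Leaving out 1 library gave 0 to 2 for age in naive cells, 0 to 3 and 0 to 1 for age after asbestos, 1 to 2 and 1 to 4 for asbestos, and 3 to 4 and 2 to 5 for the sorts. It gave 3 to 7 and 5 to 6 for Siglec F-low against naive, and 0 to 0 for both interactions.

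Signs turned only for log2 differences that were not called with 24 libraries. With 22 libraries Fn1 with age in asbestos Siglec F-high was -0.44 (block -0.44, voom -0.35), the age by asbestos term of Vegfa -0.024 (block -0.025) and the age by sort term of Hbegf 0.012. The block gave 0.0026 for Tgfbi between young sorts, and -0.0029 for Tgfb1 there with 22 libraries. Voom gave 0.0063 for Tgfb1 and -0.22 for Vegfa with age in naive cells, and 0.15 for the age by asbestos term of Areg. Leaving out 1 library gave, with age in naive cells, -0.037 to 0.0096 for Tgfb1, -0.13 to 0.0016 for Tgfbi and -0.42 to 0.63 for Vegfa. With age in asbestos Siglec F-high it gave -0.16 to 0.41 for Areg, -0.18 to 0.29 for Fn1 and -0.25 to 1.15 for Pdgfa. With age in Siglec F-low it gave -0.068 to 0.20 for Pdgfa and -0.13 to 0.046 for Pdgfc. For asbestos it gave -0.090 to 0.35 for Areg and -0.12 to 0.0015 for Tgfbi in old mice, and -0.028 to 0.36 for Pdgfb and -0.10 to 0.42 for Vegfa in young mice. For the young sorts it gave -0.30 to 0.0093 for Pdgfc and -0.038 to 0.067 for Tgfbi. For old Siglec F-low against naive it gave -0.39 to 0.24 for Pdgfb. The age by sort term was -1.04 to 0.41 for Hbegf and -1.08 to 0.33 for Pdgfa. Depth limits Pdgfa and Hbegf in naive cells, where a library held 1 to 5 and 3 to 17 reads.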
